A study of Mus musculus with 30 samples.

Results

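The livers of Nrf2-knockout mice given CDDO-Me were compared with those of Nrf2-knockout mice given vehicle, which measures what is left of the response to the drug when NRF2 is absent. The comparison used 10 of the 30 libraries of the series, 5 from CDDO-Me-treated and 5 from vehicle-treated mice, chosen by the genotype and the treatment in their labels. Each mouse received 1 oral dose of CDDO-Me at 30 µmol/kg body weight, or the vehicle alone (DMSO, Cremophor-EL, and PBS), and the liver was taken 24 hours later. The mice were male, 7 to 10 weeks old, homozygous for a germline deletion of Nrf2, and of an albino C57BL/6J background. All cells of these livers therefore lacked NRF2, not the hepatocytes alone. The other 20 libraries came, in groups of 5, from wild-type mice and from mice homozygous for the Keap1 C151S allele, with the same drug, dose, and time, and they are used below only to set a response beside that of the knockout. Labels and methods do not say that replicate numbers mark litters, cages, or days.

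CDDO-Me (bardoxolone methyl) is an oleanane triterpenoid with an electrophilic center that reacts with cysteines. KEAP1 is an adaptor that delivers the transcription factor NRF2 for degradation, and when a sensor cysteine of KEAP1 is modified, NRF2 escapes, enters the nucleus with a small MAF partner, and raises the expression of enzymes of conjugation, quinone reduction, and thiol defense. An electrophile can also meet other thiol proteins, so that a mouse without NRF2 is the usual control for effects that do not pass through this factor. Heat shock, proteasome, unfolded protein, immediate early, and acute phase genes are programs that the liver is known to run under stress, and they were examined here beside the NRF2 target genes.

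Between 27785049 and 42073169 counts fell on genes in the 10 libraries, which was 72.4% to 80.6% of the reads. Libraries with replicate numbers 1 to 3 held at least 37386596 counts and those numbered 4 and 5 at most 31121167, in both treatments. Levels are given as counts per 1000000 counts of the library (CPM) after scaling by the trimmed mean of M values. The clock gene Arntl also parted the livers: its level was low, at 0.667 to 1.87 CPM, in vehicle replicates 1, 2, and 3 and in CDDO-Me replicates 1, 3, and 4, and high, at 10.8 to 17.2 CPM, in vehicle replicates 4 and 5 and in CDDO-Me replicates 2 and 5. CDDO-Me replicate 2 stood apart from all others. The summed level of 5 hepatocyte markers (Alb, Apoa1, Ttr, Serpina1a, and Tf) was 81234 CPM there, while the vehicle libraries held 128140 to 145005 CPM and the highest CDDO-Me library 129123 CPM, and its acute phase transcripts were far above those of the other 9 libraries. The main results that rest on this library are given with and without it. Nfe2l2, the gene of NRF2, was at 29.5 to 39.8 CPM in vehicle-treated and 22.4 to 29.2 CPM in CDDO-Me-treated knockout mice, and at 60.4 to 71.0 CPM in vehicle-treated wild-type mice (lowest to highest of 5, all 30 libraries scaled together). A count over the whole gene does not show which exons the remaining transcripts hold. On the same scale Nqo1, the quinone reductase most used to read NRF2 activity, was at 1.31 to 2.72 CPM in vehicle-treated knockout and 4.51 to 9.23 CPM in vehicle-treated wild-type mice.

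Of 14474 genes with enough counts to test, edgeR's quasi-likelihood test called 0 when an adjusted p (false discovery rate) under 0.05 was asked together with a log2 fold change of at least 0.5, and its lowest adjusted p was 0.243. An unadjusted p under 0.05 was reached by 553 genes that were higher after CDDO-Me (3.82% of those tested) and by 583 that were lower (4.03%), or by 401 and 754 with upper-quartile scaling. With the replicate number as a block, so that each CDDO-Me-treated mouse was set against the vehicle-treated mouse of the same number, edgeR again called 0 genes, with a lowest adjusted p of 0.153. In that paired test 639 genes were higher (4.41%) and 767 lower (5.30%) at an unadjusted p under 0.05, and 960 of the 1406 were the same genes as without pairs. Same-numbered mice were not shown to be paired, as deviations from the group means correlated over 0.1 in only 3 of 5 such pairs. Directions within pairs are given below as description only. DESeq2, on the same counts, called 55 genes, 30 higher (0.207%) and 25 lower (0.173%). Without CDDO-Me replicate 2 it called 36, and edgeR 0. In a single edgeR fit of all 30 libraries, which takes the spread from all 3 genotypes, 11 genes were called in the knockout. Levels of 141 genes (0.974%) were higher in every CDDO-Me-treated mouse than in every vehicle-treated mouse, and those of 107 genes (0.739%) were lower in every one. "Higher" and "lower" below give the direction of a mean; calls are named with the test that made them.

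NRF2 target genes did not share a direction in the knockout. Of 34 genes on the list, 31 had enough counts, 17 were higher and 14 lower, and their median log2 fold change was 0.02 (-0.01 with upper-quartile scaling), beside a median of -0.01 over all genes tested and of 1.19 for the same 31 genes in wild-type mice. Without CDDO-Me replicate 2, 23 of the 31 were higher and 8 lower, with a median of 0.09, beside -0.01 over all genes. Nqo1 was at 1.35, 1.76, 2.88, 2.21, and 2.08 CPM in vehicle replicates 1 to 5 and at 2.37, 3.49, 3.05, 1.97, and 2.36 CPM in CDDO-Me replicates 1 to 5. These ranges overlapped, and only CDDO-Me replicates 2 and 3 lay above the highest vehicle-treated mouse. Its log2 fold change was 0.37 ± 0.23 (SE), against 3.16 ± 0.28 in wild-type mice, and the difference between both responses, -2.78 ± 0.33, passed the test of the 30-library fit (adjusted p = 8.44e-06, edgeR). Cbr3, a carbonyl reductase, had the widest gap of the list: -0.08 in the knockout and 5.24 in wild-type mice, a difference of -5.33 ± 0.42 (adjusted p = 6.71e-09, edgeR). Its level stayed between 0.141 and 0.506 CPM in the 10 knockout livers. Srxn1, which reduces overoxidized peroxiredoxins, differed by -2.04 (adjusted p = 1.45e-07, edgeR), and Gstm1, a glutathione S-transferase, by -2.28 (adjusted p = 2.58e-05, edgeR). Gpx2, an epithelial glutathione peroxidase, had 0 to 3 counts in each of the 10 knockout livers and was not tested there.

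**Figure D1:**
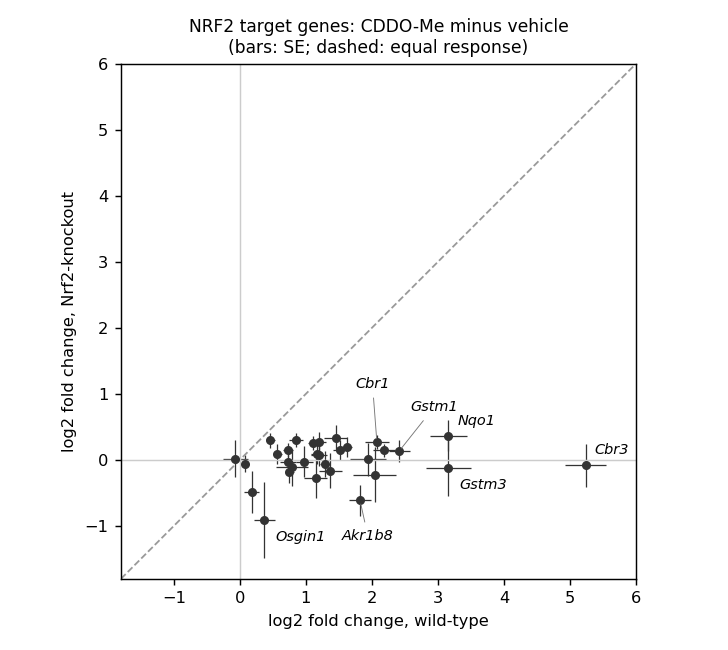
Log2 fold change (CDDO-Me minus vehicle) of 31 NRF2 target genes in wild-type mice (horizontal) against Nrf2-knockout mice (vertical), with SE bars from 5 against 5 mice in each genotype and the line of equal response dashed. The knockout values lie between -0.90 and 0.37, while those of wild-type mice reach 5.24 for Cbr3.

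In this list 4 genes were slightly higher and 1 was lower at an unadjusted p under 0.05, beside 3.82% and 4.03% of all genes. Prdx1, a peroxiredoxin that removes hydrogen peroxide, was at 748, 685, 619.6, 674, and 713 CPM in vehicle replicates 1 to 5 and at 854, 812, 979.9, 816, and 760.4 CPM in CDDO-Me replicates 1 to 5. Every CDDO-Me-treated mouse was above every vehicle-treated one, with a log2 fold change of 0.30 ± 0.11 (unadjusted p = 0.0189). Gsr, glutathione reductase, was higher by 0.30 ± 0.11, Cbr1, a further carbonyl reductase, by 0.27 ± 0.11, and Txnrd1, thioredoxin reductase, by 0.26 ± 0.11. In wild-type mice the log2 fold changes of these 4 genes were 0.46, 0.85, 2.08, and 1.11, in the same order. The responses of Cbr1 (difference -1.8, adjusted p = 0.000206) and Txnrd1 (difference -0.85, adjusted p = 0.00799) differed between genotypes in edgeR, and those of Gsr (adjusted p = 0.148) and Prdx1 (adjusted p = 0.935) did not pass the threshold. Akr1b8, an aldo-keto reductase, was at 1.85, 2.37, 3.29, 2.67, and 3.03 CPM after vehicle and at 1.43, 1.14, 1.82, 2.30, and 1.96 CPM after CDDO-Me. It was lower in all 5 same-numbered pairs, with a log2 fold change of -0.61 ± 0.23, while in wild-type mice it was higher by 1.82. Hmox1, heme oxygenase, which many stress factors besides NRF2 can raise, was at 10.5, 20.4, 26.1, 29.6, and 13.3 CPM and at 10.5, 10.8, 14.0, 11.5, and 24.6 CPM, and the groups overlapped throughout (-0.48 ± 0.31).

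Nfe2l2 itself was lower in treated knockout livers. Its level was 32.1, 38.8, 42.2, 40.6, and 30.8 CPM in vehicle replicates 1 to 5 and 23.2, 23.8, 28.9, 30.1, and 30.8 CPM in CDDO-Me replicates 1 to 5. The highest treated mouse lay just below the lowest vehicle-treated one, so that the groups nearly touched but did not overlap. The log2 fold change was -0.43 ± 0.12 (adjusted p = 0.547 in edgeR and 0.161 in DESeq2), beside -0.31 ± 0.07 in wild-type and -0.23 ± 0.16 in C151S mice. Keap1 was at 53.2, 54.9, 44.4, 43.1, and 55.8 CPM and at 63.6, 50.4, 49.7, 55.4, and 43.2 CPM, with no separation (0.06 ± 0.12).

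Immediate early genes, which cells transcribe within minutes of a stimulus without new protein synthesis, were split in the knockout, with a group of classical members higher. Of 26 members 21 were tested, and 8 were higher and 1 lower at an unadjusted p under 0.05 (3.82% and 4.03% of all genes), or 6 and 0 without CDDO-Me replicate 2. Counted by direction alone 11 were higher and 10 lower, and the median of 0.06 was -0.03 without CDDO-Me replicate 3 and 0.48 without vehicle replicate 5. Fos, a subunit of AP-1, was at 0.992, 2.09, 0.874, 0.984, and 9.98 CPM in vehicle replicates 1 to 5 and at 6.28, 23.5, 18.9, 15.6, and 6.06 CPM in CDDO-Me replicates 1 to 5. Vehicle replicate 5 stood above 2 of the treated mice, and the other 4 vehicle-treated mice lay below all treated ones. The log2 fold change was 2.26 ± 0.70 (adjusted p = 0.547 in edgeR and 0.222 in DESeq2). Egr1, a zinc finger activator, was at 58.9, 56.7, 21.8, 37.0, and 36 CPM after vehicle and at 97.8, 224, 194, 225, and 57.1 CPM after CDDO-Me. CDDO-Me replicate 5 fell within the vehicle range and the other 4 treated mice were above it. DESeq2 called the increase of Egr1, 1.92 ± 0.39 in edgeR, at an adjusted p of 0.000298.

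Zfp36 encodes tristetraprolin, an RNA-binding protein that speeds the decay of cytokine transcripts and is itself induced with the immediate early genes. Its level was 139, 145, 85.0, 121, and 176 CPM in vehicle replicates 1 to 5 and 261, 323, 293, 256, and 195 CPM in CDDO-Me replicates 1 to 5. All 5 treated mice were above all 5 vehicle-treated mice, with replicate 5 of both groups closest. DESeq2 called the increase (1.0 ± 0.19 in edgeR, adjusted p = 0.000694 in DESeq2), which was 0.92 without CDDO-Me replicate 2. Jun, the partner of FOS in AP-1, was at 12.9, 28.6, 16.5, 21.1, and 30.7 CPM and at 47.5, 37.1, 66.5, 60.0, and 18.4 CPM. Here CDDO-Me replicate 5 again lay among the vehicle-treated mice, and the log2 fold change was 1.06 ± 0.33. Ier2 (0.97 ± 0.26), Junb (0.75 ± 0.31), Btg2 (0.58 ± 0.26), and Myc (1.40 ± 0.53) were also higher at an unadjusted p under 0.05, and Ier3, at 0.919 CPM after vehicle, was lower (-0.67 ± 0.30). For Myc, CDDO-Me replicate 1 held 37.1 CPM and the next highest mouse 8.39 CPM. Within the libraries numbered 4 and 5 alone, Junb (-0.05) and Btg2 (-0.08) were not higher. In the other genotypes Zfp36 had log2 fold changes of -0.05 ± 0.40 (wild-type) and -0.43 ± 0.30 (C151S), and the difference between the knockout and wild-type responses did not pass the test (adjusted p = 0.77, edgeR).

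**Figure D2:**
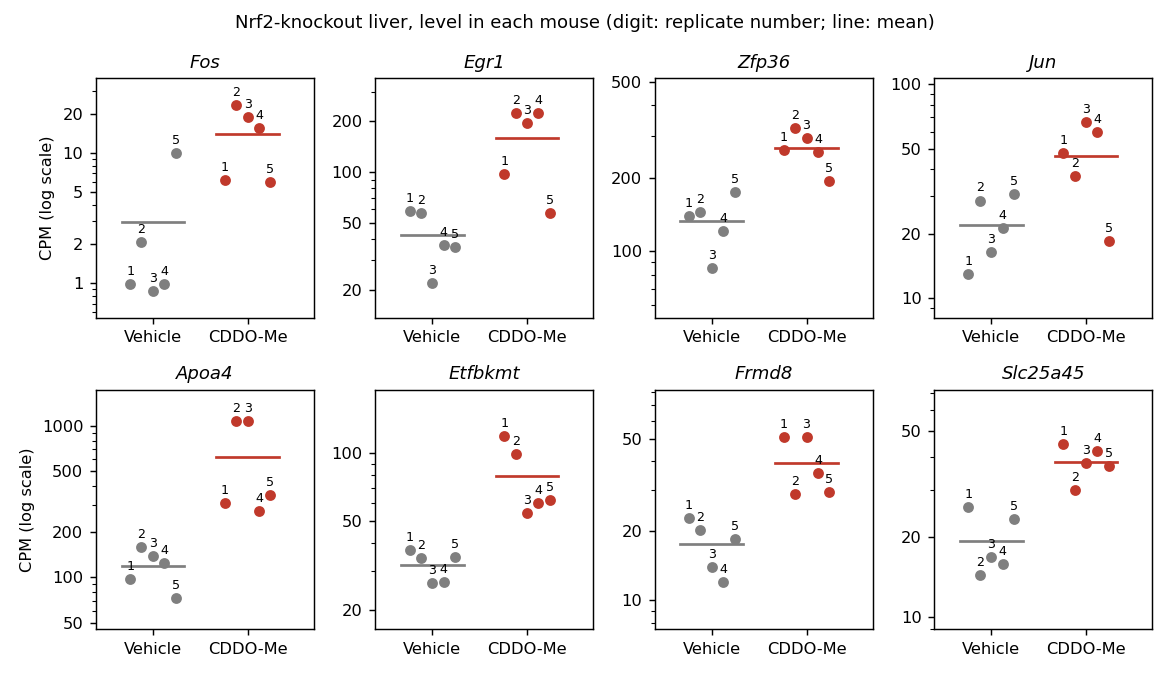
Levels of 8 genes in the 10 Nrf2-knockout livers, in CPM on a log axis, with each point 1 mouse, digits the replicate number, and lines the group means. For Zfp36, Apoa4, Etfbkmt, Frmd8, and Slc25a45 all CDDO-Me points lie above all vehicle points. For Fos, Egr1, and Jun the point of CDDO-Me replicate 5 falls into the vehicle range, and for Fos that of CDDO-Me replicate 1 does too.

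The upstream sequences of Fos and Zfp36 are shown because both genes were higher and their neighbouring control elements have well-known forms. The 250 bases before the transcript start are printed 5′ to 3′ on the gene's strand from RefSeq (GRCm38.p6), in lower case with matches to the searched motifs in capitals. Fos, at chr12:85473640-85473889 on the plus strand, held none of the motifs, and Zfp36, at chr7:28379229-28379478 on the minus strand, held 1 match to the core of the serum response element, which begins 58 bases before the start.
Fos: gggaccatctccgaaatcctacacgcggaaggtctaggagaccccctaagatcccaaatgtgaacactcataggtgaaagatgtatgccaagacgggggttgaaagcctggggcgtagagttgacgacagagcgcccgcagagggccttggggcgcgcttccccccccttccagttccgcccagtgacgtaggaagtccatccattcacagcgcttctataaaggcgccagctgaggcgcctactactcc
Zfp36: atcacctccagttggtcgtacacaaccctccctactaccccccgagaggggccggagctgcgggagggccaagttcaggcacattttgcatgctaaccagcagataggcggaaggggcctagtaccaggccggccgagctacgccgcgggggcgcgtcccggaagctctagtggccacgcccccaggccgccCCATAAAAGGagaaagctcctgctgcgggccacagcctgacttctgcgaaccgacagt
The motifs searched on both strands were the NRF2 element TGACNNNGC, the serum response element core (CC, then 6 bases of A or T, then GG), the cyclic AMP element TGACGTCA, and the AP-1 element TGANTCA, and a cyclic AMP element can share its first bases with an NRF2 element. Promoters were found for 21 of the 26 immediate early genes. Counting a gene if any of its promoters matched, 7 genes held the NRF2 element, 2 the serum response core, 3 the cyclic AMP element, and 0 the AP-1 element. Over 32851 promoters of the same length, each counted by itself, the shares were 10.2%, 1.47%, 1.55%, and 6.75%. A gene with several promoters, such as Egr2 or Maff, can match in any of them, so counts of genes and shares of promoters are not alike. Of 29 NRF2 target genes with a promoter, 7 held the NRF2 element in this window of at least 1 promoter. A match describes letters in the sequence only, and no match says only that these letters are not in this window.

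Among the genes with the lowest p on the upper side, Zfp36 and Egr1 (unadjusted p = 0.000241 and 0.000356, edgeR) were immediate early genes. Those described next belonged to no list. Apoa4, an apolipoprotein of chylomicrons and liver lipoproteins that follows the lipid load of hepatocytes (chromosome 9, 46240696 to 46243459, mm10), was at 97.1, 158, 138, 125, and 73.1 CPM in vehicle replicates 1 to 5 and at 311, 1081, 1075, 274, and 352 CPM in CDDO-Me replicates 1 to 5. No treated mouse was below 274 CPM and no vehicle-treated mouse above 158 CPM, and replicates 2 and 3 of the treated group were the highest. The log2 fold change was 2.39 ± 0.43 (adjusted p = 0.27 in edgeR, 1.71e-05 in DESeq2, and 0.0204 in the 30-library edgeR fit). Without CDDO-Me replicate 2 it was 2.09. The genes around Apoa4 were looked at after its values had been seen. In the apolipoprotein cluster Apoa1 had a log2 fold change of -0.09, Apoc3 of 0.06, and Apoa5 of 0.18. Gm10680, an antisense transcript that overlaps the last part of Apoa4 and was counted by strand, was higher by 3.85, with means of 0.172 CPM after vehicle and 2.63 CPM after CDDO-Me and overlapping groups. Of 9 genes tested within 100 kb, 4 were higher at an unadjusted p under 0.05 (3.82% of all genes), but these include Apoa4, on which the window was chosen, and Gm10680, which overlaps it, the others being Zpr1 (0.49) and Bud13 (0.31).

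Etfbkmt encodes the lysine methyltransferase of the electron transfer flavoprotein in mitochondria (chromosome 6, 149139849 to 149151171). Its level was 37.3, 34.3, 26.5, 26.7, and 34.5 CPM after vehicle and 120.0, 99.9, 54.4, 60.2, and 62.2 CPM after CDDO-Me, in replicates 1 to 5. The lowest treated mouse, replicate 3, lay above the highest vehicle-treated mouse, and treated replicates 1 and 2 were the highest. Its log2 fold change of 1.32 ± 0.22 was called by DESeq2 (adjusted p = 7.22e-05) and in the 30-library edgeR fit (adjusted p = 0.0204). In wild-type mice the value was -0.49 ± 0.18, and the difference between the 2 responses, 1.81 ± 0.34, passed the test (adjusted p = 0.00799, edgeR). Against C151S mice, with 0.18 ± 0.24, it did not (adjusted p = 0.943, edgeR).

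Frmd8 and Slc25a45 lie next to each other on chromosome 19 and were higher in every treated mouse. Frmd8, whose product steadies the sheddase ADAM17 at the cell surface (5849702 to 5875274, minus strand), was at 22.8, 20.2, 14.0, 12, and 18.4 CPM in vehicle replicates 1 to 5 and at 51.1, 29.0, 51.1, 35.8, and 29.5 CPM in CDDO-Me replicates 1 to 5. Slc25a45, a mitochondrial carrier (5877808 to 5885878, plus strand), was at 25.9, 14.4, 16.7, 15.8, and 23.3 CPM and at 44.8, 30.1, 38.1, 42.2, and 37.1 CPM. For both genes the groups were separate, and treated replicate 2 was the lowest of its group. The log2 fold changes, 1.17 ± 0.22 and 1.0 ± 0.17, were called by DESeq2 (adjusted p = 0.000525 and 0.000298) and in the 30-library edgeR fit (adjusted p = 0.00269 and 0.0204). Both differed from the wild-type response, by 1.41 ± 0.24 (adjusted p = 0.00325) and 1.24 ± 0.25 (adjusted p = 0.0162, edgeR). Against C151S mice, with 0.02 ± 0.15 and 0.23 ± 0.19, the differences did not pass the test (adjusted p = 0.226 and 0.943, edgeR).

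Malat1, an abundant nuclear long noncoding RNA, is transcribed from the same stretch (5795690 to 5802672) and was looked at after its neighbours' values had been seen. It was at 509, 164, 231, 358, and 182 CPM in vehicle replicates 1 to 5 and at 887, 246, 1186, 1502, and 538 CPM in CDDO-Me replicates 1 to 5. Treated replicate 2 lay inside the vehicle range and the other 4 treated mice were above it, with all 5 same-numbered pairs higher after treatment. The log2 fold change was 1.59 ± 0.46 (adjusted p = 0.547 in edgeR and 0.0404 in DESeq2), and its difference from the wild-type response did not pass the test (adjusted p = 0.364, edgeR). Neat1, which lies between Malat1 and Frmd8, was lower in mean, at 474 ± 118 CPM (SD, n = 5) and 343 ± 139 CPM, with overlapping groups (-0.46 ± 0.27). Of 11 genes tested within 100 kb of Frmd8, 4 were higher at an unadjusted p under 0.05 (3.82% of all genes) and 0 were lower. The 4 were Malat1, Frmd8os (0.84), which overlaps Frmd8, and Frmd8 and Slc25a45, around which the window was chosen, while Dpf2 (-0.03), the next tested gene after Slc25a45, was close to 0.

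**Figure D3:**
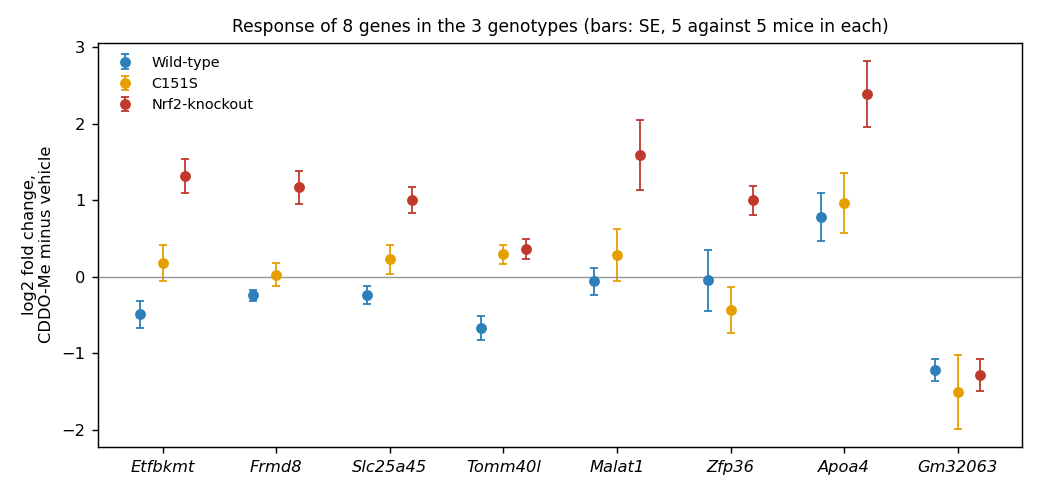
Log2 fold change (CDDO-Me minus vehicle) of 8 genes in mice of the 3 genotypes, with SE bars from 5 against 5 mice in each. The knockout points of Etfbkmt, Frmd8, Slc25a45, and Malat1 lie between 1.0 and 1.59, those of wild-type mice between -0.49 and -0.06, and those of C151S mice between 0.02 and 0.28. The points of Gm32063 lie between -1.51 and -1.22 in all 3 genotypes.

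Over all genes, 40 of 15010 (0.266%) had a response in the knockout that differed from that in wild-type mice at an adjusted p under 0.05 (edgeR, 30 libraries). In 36 the knockout's response was lower, and they were led by the NRF2 targets named above. The other 4 were Etfbkmt, Frmd8, Slc25a45, and Tomm40l, a paralog of a mitochondrial import pore subunit, named after its value was seen. Tomm40l was at 26.5, 22.6, 22.4, 21.4, and 27.6 CPM in vehicle-treated and 34.3, 38.6, 27.4, 30.1, and 24.0 CPM in CDDO-Me-treated knockout mice, so that treated replicates 3 and 5 overlapped with the vehicle group. Its log2 fold change was 0.36 ± 0.13 in the knockout and -0.67 ± 0.16 in wild-type mice. Against C151S mice 2 genes differed, Plcd3 (difference -3.33 ± 0.52, adjusted p = 0.0105) and the noncoding Gm42031 (-4.32 ± 0.75, adjusted p = 0.0252, edgeR), and the knockout's own log2 fold changes were -0.57 and 0.63, neither of them called.

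Further genes were higher in every treated mouse at low counts or by small amounts. Gmds, which makes GDP-mannose into the precursor of GDP-fucose, was at 1.8 ± 0.234 CPM (SD, n = 5) after vehicle and 3.38 ± 0.410 CPM after CDDO-Me, a log2 fold change of 0.91 ± 0.16. Crip2, a LIM-domain protein, was at 37.2 ± 5.05 and 56.3 ± 7.09 CPM (0.60 ± 0.12), and Vmp1, a membrane protein of autophagosome formation, at 79.4 ± 6.37 and 119.9 ± 21.1 CPM (0.59 ± 0.12). DESeq2 called Gmds, Crip2, and Vmp1 (adjusted p = 0.000157, 0.00335, and 0.00574). Rfk, riboflavin kinase, varied little within groups, 33.6 ± 1.11 and 43.5 ± 2.69 CPM, and its log2 fold change of 0.37 ± 0.08 was under the size asked of a call. The lowest p of all, 1.68e-05, belonged to the antisense transcript 2310043M15Rik, which had 4 to 7 counts in each vehicle library and 12 to 22 in each CDDO-Me library (adjusted p = 0.243 in edgeR and 0.00797 in DESeq2).

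Among genes that were lower, the long noncoding RNA Gm32063 had the lowest p. It was at 11.3, 16.6, 9.30, 7.27, and 11.2 CPM in vehicle replicates 1 to 5 and at 3.83, 4.06, 5.52, 5.0, and 4.5 CPM in CDDO-Me replicates 1 to 5. The groups were apart, and the treated mice were closer to each other than the vehicle-treated mice were. DESeq2 called its decrease, -1.28 ± 0.21 in edgeR, at an adjusted p of 5.5e-05, and it was lower by a like amount in wild-type (-1.22 ± 0.14) and C151S mice (-1.51 ± 0.48). Hps4, a subunit of the exchange factor that builds lysosome-related organelles, was at 26.1, 28.4, 26.6, 20.3, and 20.8 CPM and at 16.5, 14.6, 16.8, 11.9, and 12 CPM. Again no treated mouse reached the vehicle range, and the 2 pairs of smaller libraries, replicates 4 and 5, were lowest within each group. Its log2 fold change was -0.77 ± 0.14 (adjusted p = 0.000988 in DESeq2), and it was the 1 gene called by edgeR once the library-size set was a covariate (-0.77 ± 0.07, adjusted p = 0.00812), an alternative added after the data had been seen.

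Ttr, transthyretin, a carrier protein that hepatocytes secrete, was at 7110.4, 6128, 5534, 5454, and 6344 CPM after vehicle and at 5154, 2929.8, 3796, 3540.2, and 3773 CPM after CDDO-Me, with no overlap (-0.67 ± 0.16, adjusted p = 0.0104 in DESeq2, and -0.59 without CDDO-Me replicate 2). F11, a clotting factor made in the liver, was at 135 ± 29.2 CPM (SD, n = 5) and 72.1 ± 21.2 CPM, and Mug1, a murinoglobulin that traps proteases, at 3185 ± 873 and 1905 ± 269 CPM. The 30-library edgeR fit called F11 (-0.89, adjusted p = 0.0377) and Mug1 (-0.73, adjusted p = 0.0398), which were named after their values were seen. It also called Veph1, at 0.815 and 0.221 CPM (adjusted p = 0.0204), and the noncoding AC127342.1, at 18.6 and 4.15 CPM (adjusted p = 0.0204). Its other calls were on the upper side: Il13ra1, a receptor subunit for interleukins (36.2 ± 5.87 and 57.9 ± 11.4 CPM), was narrowly separate between groups, while the aldo-keto reductase Akr1b7 held 82.2 CPM in CDDO-Me replicate 2 and at most 5.54 CPM in any other liver, and its log2 fold change in the fit of the 10 libraries was 4.59 with this library and 1.88 without it. Both were named after their values were seen. Albumin transcripts (Alb) were below the vehicle range in all 5 treated mice, at 80838 ± 13164 against 98977 ± 6726 CPM, but the log2 fold change was -0.29 ± 0.16 and did not reach an unadjusted p of 0.05.

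Proteasome subunit genes were higher together by a small amount. All 31 members were higher, with log2 fold changes of 0.08 to 0.41 and a median of 0.22, and 13 of them (0 lower) reached an unadjusted p under 0.05, where 3.82% of all genes did so on the upper side. Members share a transcription program and are not independent of each other. The median over members, as log2 CPM minus the vehicle mean, was 0.12, -0.10, -0.18, 0.01, and 0.15 in vehicle replicates 1 to 5 and 0.29, 0.26, 0.26, 0.29, and 0.10 in CDDO-Me replicates 1 to 5. Treated replicate 5 lay inside the vehicle range and the other 4 above it. Psmd13, a subunit of the regulatory lid, was at 76.1, 65.5, 61.6, 59.1, and 61.5 CPM and at 93.1, 97.8, 92.9, 81.9, and 63.1 CPM (0.41 ± 0.13, with treated replicate 5 inside the vehicle range), and the catalytic subunit gene Psmb6 at 114 ± 12.8 and 141 ± 12 CPM (0.30 ± 0.11). Psma3 (0.24 ± 0.09) and Psmb7 (0.25 ± 0.09), of the outer and inner rings of the core, were higher in every treated mouse. The list's median was -0.03 in wild-type and 0.19 in C151S mice. The count of 13 was 6 without vehicle replicate 2 and up to 21 when another library was left out.

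**Figure D4:**
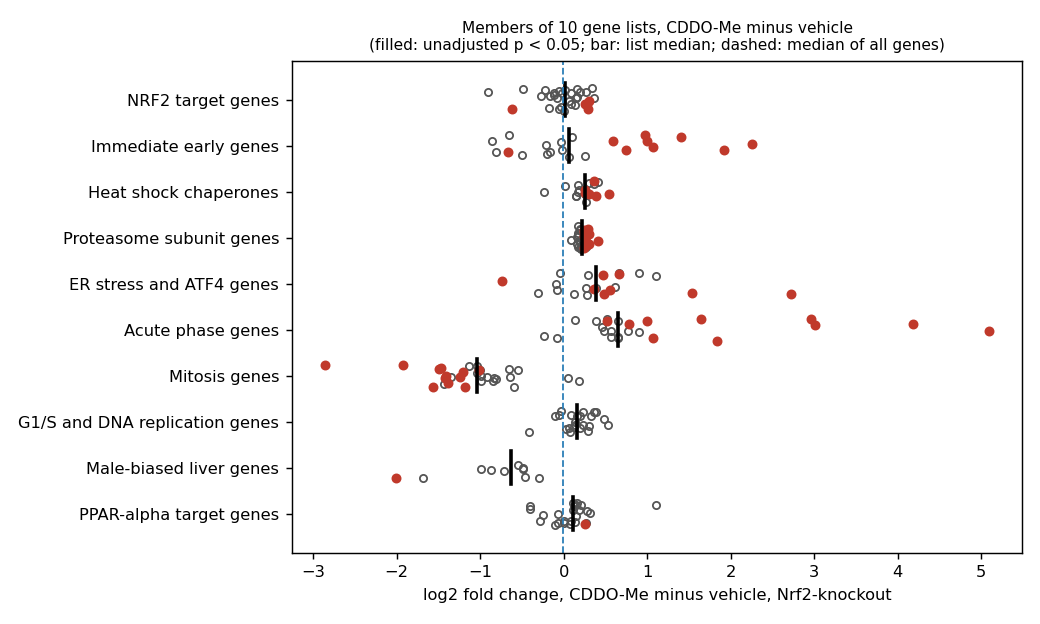
Log2 fold change (CDDO-Me minus vehicle) in Nrf2-knockout liver of the members of 10 gene lists, each point 1 gene, filled where the unadjusted p was under 0.05, with the list median as a bar and the median of all genes dashed. The proteasome members lie tightly on the upper side, the mitosis members on the lower side, and the NRF2 targets around 0.

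Heat shock chaperones, which refold or hold damaged proteins, were higher in 17 of 18 members, with a median of 0.26, and 6 of them (0 lower) had an unadjusted p under 0.05, as had 3.82% of all genes on the upper side. Hsp90aa1, the inducible cytosolic HSP90, was at 59.8, 65.5, 60.6, 105, and 76.8 CPM in vehicle replicates 1 to 5 and at 80.1, 112, 106, 123, and 113 CPM in CDDO-Me replicates 1 to 5. Only vehicle replicate 4, at 105 CPM, reached into the treated range, and the log2 fold change was 0.54 ± 0.17 (adjusted p = 0.547 in edgeR and 0.19 in DESeq2). The mitochondrial chaperonin pair, Hspe1 (0.38 ± 0.12) and Hspd1 (0.26 ± 0.11), which share a promoter, and the HSP70-HSP90 organizer Stip1 (0.31 ± 0.11) were also higher at that level. The median of the list was -0.08 in wild-type and 0.38 in C151S mice, and without CDDO-Me replicate 2 the knockout's was 0.27 with 8 members at that level of p. The count was 3 without vehicle replicate 5.

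Genes of endoplasmic reticulum stress and of ATF4, the factor of the amino acid response, were higher in 16 of 21 members, with a median of 0.39, and 7 were higher and 1 lower at an unadjusted p under 0.05, beside 3.82% and 4.03% of all genes. The chaperone Hyou1 was at 109.9 ± 27.0 CPM (SD, n = 5) after vehicle and 153 ± 37.3 CPM after CDDO-Me (0.48 ± 0.19), Manf at 54.6 ± 13.4 and 75.5 ± 14.8 CPM (0.47 ± 0.18), and Creld2 at 22.2 ± 7.65 and 32.6 ± 8.12 CPM (0.55 ± 0.23). Vehicle replicate 2 was the highest vehicle-treated mouse for all 3, and CDDO-Me replicate 5 the highest treated one. Hspa5, the main chaperone of the compartment, overlapped between groups (0.29 ± 0.17). Psat1, of serine synthesis, was at 0.441, 0.679, 0.782, 0.913, and 0.916 CPM and at 2.56, 15.7, 3.67, 1.5, and 1.03 CPM. The groups were apart, but treated replicate 2 alone held over 4 times as much as the next mouse, and the log2 fold change was 2.72 ± 0.69 with this library and 1.56 without it (adjusted p = 0.00511 in DESeq2 and 0.0349 in the 30-library edgeR fit). Asns, asparagine synthetase, held 35.1 CPM in the same library and 1.42 to 8.70 CPM in the other treated mice (1.53 ± 0.67, 0.49 without it), and the ATF4 target Trib3 was lower (-0.74 ± 0.32). Without CDDO-Me replicate 2 the list kept 2 members higher and 0 lower at that level of p, with a median of 0.26, and without vehicle replicate 5 it also kept 2 higher.

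Outside this list, 3 genes of protein folding and disposal in the same compartment were called by DESeq2. They were chosen by function from its 55 calls. Derl3, a channel protein for degradation of misfolded proteins, was at 0.854, 2.77, 1.27, 0.667, and 0.916 CPM in vehicle replicates 1 to 5 and at 5.12, 9.20, 3.0, 2.23, and 2.7 CPM in CDDO-Me replicates 1 to 5. Vehicle replicate 2 overlapped with the treated mice, the other 4 lay below, and every same-numbered pair was higher after treatment (1.77 ± 0.47, adjusted p = 0.0352 in DESeq2). Dnajb11 (0.52 ± 0.12, adjusted p = 0.0352) and Dnajc3 (0.52 ± 0.13, adjusted p = 0.0364 in DESeq2), cochaperones of HSPA5, were higher in every treated mouse. Without CDDO-Me replicate 2 the log2 fold changes of Derl3, Dnajb11, and Dnajc3 were 1.32, 0.42, and 0.42 in edgeR. For Derl3 the log2 fold change was -0.35 ± 0.38 in wild-type and 4.24 ± 1.0 in C151S mice, and neither difference from the knockout passed the test (adjusted p = 0.758 and 0.943, edgeR).

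Acute phase genes, which hepatocytes transcribe under interleukin signals, were higher in 22 of 24 members, with a median of 0.65. At an unadjusted p under 0.05, 10 were higher and 0 lower (3.82% and 4.03% of all genes). With the replicate number as a block 4 were higher and 0 lower (4.41% and 5.30% of all genes). CDDO-Me replicate 2 was far above the other livers in many members of the list. Lcn2, a siderophore-binding protein, was at 16.8, 4.38, 20.5, 18.4, and 4.51 CPM in vehicle replicates 1 to 5 and at 23.3, 2057, 80.4, 8.18, and 38.4 CPM in CDDO-Me replicates 1 to 5. Saa2, a serum amyloid, was at 70.0, 15.8, 63.9, 216, and 13.7 CPM and at 43.1, 6465, 279, 14.6, and 61.0 CPM. In both genes CDDO-Me replicate 2 exceeded every other liver by over 20 times, and the range of the remaining 4 treated mice overlapped with that of the vehicle group. The log2 fold change of Lcn2 was 5.09 ± 1.46 with and 1.54 without this library, and that of Saa2 was 4.18 ± 1.59 with and 0.40 without it. Without it the median of the list was 0.28 and 5 members were higher at that level of p, and leaving out another library gave up to 17.

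Apcs, serum amyloid P, was higher in every treated mouse (86.8, 65.5, 73.5, 99.4, and 66.5 against 156, 809, 208, 99.7, and 121 CPM in replicates 1 to 5), although vehicle and treated replicate 4 differed by under 1 CPM. Its log2 fold change was 1.83 ± 0.52 with CDDO-Me replicate 2 and 0.90 without it. Fgl1, a hepatocyte-secreted fibrinogen-like protein, was at 335, 354, 342, 610.4, and 317 CPM and at 688, 1779, 630.1, 629, and 1167 CPM. All treated mice were above all vehicle-treated ones, of which replicate 4 was far the highest, and DESeq2 called the increase (1.32 ± 0.32 in edgeR, 0.99 without CDDO-Me replicate 2, adjusted p = 0.0098 in DESeq2). Wild-type mice gave 1.49 ± 0.27 for Fgl1 and 4.25 ± 0.99 for Lcn2, and the differences from the knockout did not pass the test. The metallothioneins Mt1 and Mt2, zinc-binding proteins that respond to metals and to acute phase signals, had the same library on top: 1719 CPM of Mt1 there and 101 to 333 CPM in the other treated mice. Their log2 fold changes were 2.03 ± 0.77 and 2.22 ± 0.87, or 0.76 and 0.89 without that library.

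**Figure D5:**
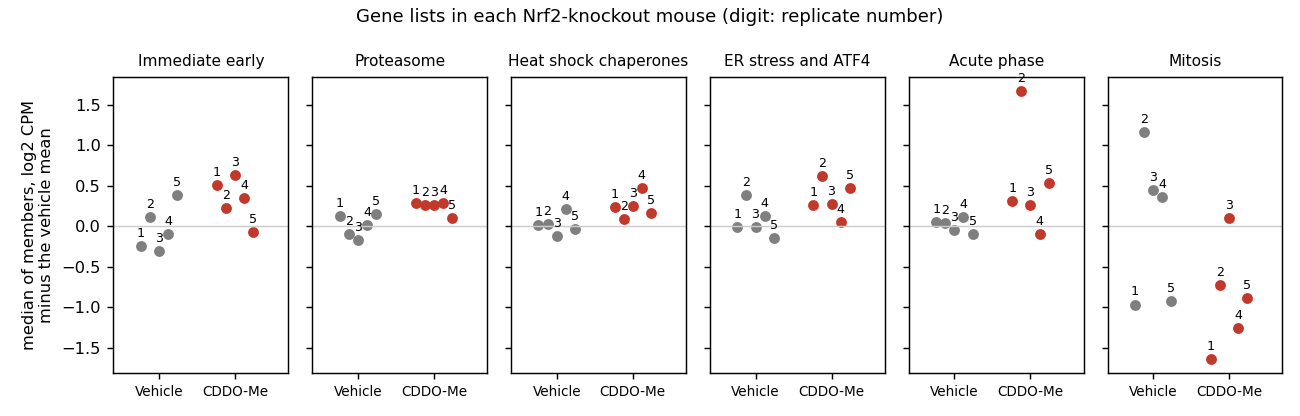
Median over the members of 6 gene lists in each Nrf2-knockout liver, as log2 CPM minus the mean of the vehicle-treated mice, with each point 1 mouse and digits the replicate number. CDDO-Me replicate 2 stands alone in the acute phase panel, 4 of 5 treated mice lie above the vehicle points in the proteasome panel, and vehicle replicates 1 and 5 lie among the treated mice in the mitosis panel.

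Targets of NF-kB and chemokine genes parted in both directions. Cxcl1, a neutrophil attractant that hepatocytes also make, was at 10.8, 7.12, 8.81, 4.46, and 8.88 CPM in vehicle replicates 1 to 5 and at 21.3, 43.7, 53.1, 9.17, and 31.3 CPM in CDDO-Me replicates 1 to 5. Treated replicate 4 lay within the vehicle range and the other 4 above it, and every same-numbered pair was higher after treatment. DESeq2 called it (1.98 ± 0.40 in edgeR, 1.84 without CDDO-Me replicate 2, adjusted p = 0.000334 in DESeq2). In the same list Relb (-0.70 ± 0.19) and Nfkb2 (-0.39 ± 0.13), the subunits of the noncanonical NF-kB pathway, were lower in all 5 pairs, as was the interleukin gene Il1b in 4 of them (-1.0 ± 0.38). Of 18 tested members 2 were higher and 3 lower at an unadjusted p under 0.05, beside 3.82% and 4.03% of all genes. The list median was -0.18. Irf1, a factor of the interferon response, was lower in all 5 pairs (-0.43 ± 0.13). Its list of 23 had 1 member higher and 3 lower at that level, or 2 and 3 in the paired test (4.41% and 5.30% of all genes).

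Mitosis genes were lower in 28 of 30 members tested, with a median of -1.04, and 12 were lower and 0 higher at an unadjusted p under 0.05, where 4.03% of all genes did so on the lower side. With the replicate number as a block, 20 of them reached that level, beside 5.30% of all genes on the lower side. Counts were low, and the summed level of the list was 38.6 to 128 CPM after vehicle and 29.5 to 71.2 CPM after CDDO-Me. Ccnb1, the cyclin of mitotic entry, was at 0.248, 2.79, 1.04, 1.55, and 0.317 CPM in vehicle replicates 1 to 5 and at 0.0275, 0.371, 0.0998, 0.0731, and 0.217 CPM in CDDO-Me replicates 1 to 5. The treated libraries held 1 to 15 counts of it, vehicle replicates 1 and 5 overlapped with them, and replicates 2, 3, and 4 were above them. DESeq2 called its decrease (-2.86 ± 0.74 in edgeR, adjusted p = 0.0352 in DESeq2) and that of the checkpoint kinase gene Bub1b (-1.19 ± 0.29, adjusted p = 0.0364), which was lower in every treated mouse. Mki67, the proliferation marker, was at 1.82, 11.5, 6.93, 8.5, and 2.22 CPM and at 0.881, 2.42, 6.76, 2.01, and 3.26 CPM, with overlapping groups (-1.01 ± 0.58). The number of members lower at that level was 5 without vehicle replicate 2 and up to 25 without another library.

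Genes of the preceding steps of the cycle were not lower as a list. Of 23 genes of the G1/S transition and DNA replication, 0 reached an unadjusted p under 0.05 in either direction, and their median was 0.16 (-0.15 without CDDO-Me replicate 3, which was highest in this list). Ccna2, a cyclin of S phase and of mitotic entry, was at 1.21, 3.8, 2.72, 1.86, and 1.06 CPM and at 0.578, 0.866, 2.35, 0.913, and 0.932 CPM, lower in all 5 pairs (-0.92 ± 0.44, adjusted p = 0.65, edgeR). In wild-type mice the medians were -1.10 for the mitosis and -0.26 for the G1/S list, and in C151S mice -1.70 and -0.30. Cdkn1a, the p21 inhibitor of the cell cycle, was 73.2 CPM in CDDO-Me replicate 2 and 2.26 to 17.9 CPM in the other treated mice, beside 1.32 to 13.7 CPM after vehicle.

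Lists of CAR and PXR targets, PPAR-alpha targets, lipogenesis, and cholesterol synthesis genes had medians between -0.16 and 0.12 in the fit of the 10 libraries. Some of them held more members at an unadjusted p under 0.05 than the share of all genes. Over all genes 3.82% were higher and 4.03% lower at an unadjusted p under 0.05, or 4.41% and 5.30% with the replicate number as a block. Cyp2b10, the cytochrome P450 most used to read the xenobiotic receptor CAR, was at 9.70, 2.99, 9.5, 4.67, and 1.83 CPM in vehicle replicates 1 to 5 and at 11.3, 13.0, 41.3, 27.1, and 12.9 CPM in CDDO-Me replicates 1 to 5. Every treated mouse was above every vehicle-treated one, narrowly for treated replicate 1, with a log2 fold change of 1.87 ± 0.50 (adjusted p = 0.526 in edgeR and 0.112 in DESeq2). It was beside -0.48 ± 0.37 in wild-type mice, a difference that did not pass the test (adjusted p = 0.427, edgeR). Of 17 CAR and PXR targets 2 were higher and 0 lower at an unadjusted p under 0.05, with a median of 0.12, and 5 were higher and 1 lower with the replicate number as a block. Among 25 PPAR-alpha targets 1, the fatty acid oxidation gene Hadhb, was higher (0.26 ± 0.08), in every treated mouse, and the paired test had 2 such members. Of 17 lipogenesis genes 2 were lower, Scd1, stearoyl-CoA desaturase (-0.86 ± 0.39), and Mlxipl, the carbohydrate response factor (-0.42 ± 0.14), and both were lower in all 5 pairs. By direction alone 5 members were higher and 12 lower, with a median of -0.16. Without CDDO-Me replicate 2 these were 9 and 8, with a median of 0.02 and 1 member lower at that level. Scd1 was then at -0.66 and did not reach it. Cholesterol synthesis genes had 0 of 22 at that level and a median of 0.01 (-0.02 with upper-quartile scaling), or 0.24 with 3 members higher without CDDO-Me replicate 2, whose own median deviation from the vehicle mean was -1.8 on the log2 scale. Tfrc, the transferrin receptor, was higher (1.01 ± 0.30). Alas1, the first enzyme of heme synthesis, ranged from 41.8 to 923 CPM after vehicle and from 457 to 1722 CPM after CDDO-Me, and did not reach that level.

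The 10 male-biased liver genes, which depend on the pulses of growth hormone, were all lower in mean, with a median of -0.63, and 1 of them reached an unadjusted p under 0.05 (0 to 5 when 1 library was left out, and 3 with the replicate number as a block). On the lower side 4.03% of all genes did so, or 5.30% with the block. Elovl3, a fatty acid elongase, was at 91.8, 22.2, 4.37, 48.1, and 228 CPM in vehicle replicates 1 to 5 and at 29.5, 13.3, 4.22, 25.8, and 25.6 CPM in CDDO-Me replicates 1 to 5. The vehicle-treated mice spread over more than 50 times and replicate 3 of both groups was lowest, so that the groups overlapped (-2.0 ± 0.82). Each same-numbered pair was lower after treatment. Hsd3b5 (-1.69 ± 0.90) and the transporter gene Slco1a1 (-0.87 ± 0.47) were also lower in all 5 pairs. The medians of the list were -0.73 in wild-type and -0.80 in C151S mice. Nr1d1, a repressor of the clock, was lower in every treated mouse (-0.98 ± 0.40, -0.71 without CDDO-Me replicate 2), with 14.3 CPM in CDDO-Me replicate 2 and 79.5 to 98.6 CPM in the other treated mice.

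Markers of other cells of the liver were lower in mean in most lists, and in bulk tissue fewer cells of a type and less RNA per cell cannot be told apart. The summed level of 6 Kupffer cell markers was 138 to 314 CPM after vehicle and 105 to 245 CPM after CDDO-Me, that of 5 sinusoidal endothelial markers 192 to 314 and 143 to 296 CPM, and that of 5 B cell markers 8.29 to 21.9 and 4.03 to 10.6 CPM. All of these ranges overlapped, and 0 Kupffer cell, 1 endothelial (Stab2, -0.64 ± 0.22), and 2 B cell markers (Cd79b, -0.79 ± 0.31, and Ighm, -0.70 ± 0.30) were lower at an unadjusted p under 0.05, the B cell count being 0 without CDDO-Me replicate 2. Of all genes 4.03% were lower at that level. T and NK cell markers summed to 4.13 to 8.11 and 2.55 to 5.47 CPM, those of monocytes and neutrophils to 34.4 to 76.1 and 30.9 to 64.7 CPM, and those of stellate cells to 136 to 406 and 107 to 409 CPM. Adipocyte and skeletal muscle markers were at or under 3 counts in every library. The part of these markers in the results for Il1b, Relb, Nfkb2, and the mitosis genes, which non-parenchymal cells also express, was not tested. Hepatocyte markers were abundant in every library, and they too were lower in 4 of 5 members, with a median of -0.26 and 1 of them, Ttr, at that level.

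The direction of the knockout's response was partly shared by mice of the other genotypes, which are separate animals with their own vehicle group. Of the 553 genes higher at an unadjusted p under 0.05 in the knockout, 541 were tested in wild-type mice, where 72.3% were also higher (48.4% of all genes were) and 29.0% reached the same level upward (8.86% of all genes). In C151S mice 546 were tested, 89.4% were higher (49.1% of all genes) and 34.2% reached that level (7.25%). For the 583 lower genes, 71.5% were lower in wild-type (51.6% of all genes) and 86.4% in C151S mice (50.9%), and 21.5% and 19.2% reached that level downward (7.99% and 6.54%). Read from the other side, 214 of the 227 genes called higher by edgeR in wild-type mice, at the same thresholds, were tested in the knockout, with a median log2 fold change of 0.13 and 35 higher and 4 lower at an unadjusted p under 0.05. Of the 150 called lower, 148 were tested, with a median of -0.39, 32 lower and 2 higher. Over all genes tested in the knockout 3.82% were higher and 4.03% lower at that level. Genes within such sets are not independent of each other, and these shares are given without a test.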

How the data were processed

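Liver RNA was sequenced from stranded, poly(A)-selected libraries. The authors assessed read quality with fastp, without removing reads or bases, aligned the reads to mm10 with STAR 2.7.7, and counted them per GENCODE gene on the second strand, and the deposited values used here are these raw counts per gene, without normalization. In each library 4 alignment summary lines were left out. Positions are GENCODE annotations of mm10. The 10 Nrf2-knockout libraries were fitted with edgeR 4.0.16 (R 4.3.3): genes were kept by filterByExpr, scaled by trimmed means of M values, and tested by the quasi-likelihood F-test with Benjamini-Hochberg adjustment. A call needed an adjusted p under 0.05 and a log2 fold change of at least 0.5. A fit of all 30 libraries gave the tests between genotypes, at an adjusted p under 0.05 alone. DESeq2 1.42.0, limma 3.58.1, sva 3.50.0, a replicate block, other filters and scalings, and fits without each library were alternatives. The date of sample isolation, a covariate of the study, is not in the labels and was not used. Replicates were separate mice. Genes named are the members of lists and, outside these, those with the lowest p in each direction or a call by DESeq2, with exceptions marked in the text. Members, lists, and tests were chosen with earlier results of these data known. The test was checked on simulated counts.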

Additional observations from a re-analysis of the deposited data

Results flagged for a closer look

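In groups of 5 livers, 222 in all for the genes followed, the highest or lowest library was set against its nearest neighbour on the log2 CPM scale. In 10 groups the gap was over 0.71 of the range. Chance gives such a gap in about 1 of 20 groups, and 10 of 222 is no more than that share. Of these 10, 5 were gaps of CDDO-Me replicate 2. That library was the highest for the acute phase genes Orm2 (0.900 of the range) and Serpina3n (0.869) and the lowest for Nr1d1 (0.889), Alb (0.778), and Ighm (0.794). CDDO-Me replicate 5 was apart for Relb (0.775), as the highest of its group. Vehicle replicate 4 was the highest for Fgl1 (0.828) and Hspe1 (0.738), and vehicle replicate 5 the lowest for Mt1 (0.772) and Mt2 (0.723).

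The response in the knockout differed from the response in wild-type mice, by the interaction term of the 30-library edgeR fit, for 13 of the genes followed. It was lower by a log2 difference of -5.33 for Cbr3, -3.27 for Gstm3, -2.78 for Nqo1, -2.43 for Akr1b8, -2.28 for Gstm1, -2.04 for Srxn1, -1.8 for Cbr1, -0.854 for Txnrd1, and -0.581 for Gclm, all NRF2 targets. The response of the knockout was higher by 1.81 for Etfbkmt, 1.41 for Frmd8, 1.24 for Slc25a45, and 1.03 for Tomm40l.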

How the results depend on the processing

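In the edgeR fits of the 10 libraries, the number of genes called was 0 under every filter, scaling, and left-out library tried without a block. It was 1 with the library-size set as a covariate (Hps4) and 1 in the paired fit without replicate 1 (Cyp2b10, 2.38, adjusted p = 0.0237, edgeR). DESeq2 called 55 genes, 104 with a replicate block, and 36 without CDDO-Me replicate 2, and the 30-library fit 11. At an unadjusted p under 0.05 the 1136 genes became 1888 with sva, 362 within the high-Arntl and 301 within the libraries numbered 4 and 5, 894 to 1642 without 1 library each, and 785 to 2458 with the replicate block and 1 number left out. The 40 genes that differed from wild-type mice became 85 with DESeq2, 23 with the replicate block nested in genotype, and 32 to 43 without 1 library each. The 2 that differed from C151S mice became 0 with a minimum of 10 counts, 3 with DESeq2, 1 with the nested block, and 1 to 2 without 1 library each. Within the libraries numbered 4 and 5, Junb (-0.046), Btg2 (-0.0756), Asns (-0.14), and Saa2 (-1.61) turned direction, and the cause was not tested. Of 88 followed genes at an unadjusted p under 0.05, the other 84 kept their direction in every alternative that tested them. The alternatives reuse the libraries in which these genes had passed that p, so a kept direction is not independent evidence.

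The replicate numbers did not pair the mice by the rule used: the correlation of deviations from the group means was over 0.1 in 3 of 5 same-numbered pairs (mean 0.181), and 5 of 10 libraries correlated best with their own number. Genes with few counts, such as Ccnb1 and Gm10680, have wide errors at this depth.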

Other observations

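Other lists are given here by their counts or medians. Over all genes 3.82% were higher and 4.03% lower at an unadjusted p under 0.05, or 4.41% and 5.30% with the replicate number as a block. Of 15 bile acid genes 0 were higher and 1 lower at an unadjusted p under 0.05, with a median of -0.24, and the lower member was Cyp27a1 of the acidic pathway. With the replicate number as a block 3 were lower. The glucose and glycogen list had 0 of 17 at that level, the periportal and pericentral hepatocyte lists 0 of 9 each, and the AhR targets 0 of 5. Among 10 glucocorticoid receptor targets Errfi1 was higher, and among 11 p53 targets Sesn1 was lower at that level. The interferon list had a median of -0.20 over 23 genes, or -0.03 without CDDO-Me replicate 2. The heme and iron list had 2 of 14 higher, Cpox and Tfrc. Erythroid markers had a median of 0.31 and cholangiocyte markers of -0.39, with 0 of 5 at that level in each.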
